A study of Fundulus heteroclitus with 53 samples.

Results

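The genes described here write, copy and erase DNA methylation in the liver of the Atlantic killifish (Fundulus heteroclitus). They were chosen by symbol alone, as every gene in the count tables whose symbol begins with dnmt1, dnmt3, tet1, tet2 or tet3, together with uhrf1. This gave 7 genes (dnmt1, uhrf1, dnmt3ab, dnmt3ba, tet1, tet2 and tet3) of the 34089 listed. Relatives that the annotation carries under a LOC name are outside the rule.

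Methylation of cytosine in CpG dinucleotides is set by de novo methyltransferases of the DNMT3 family and copied onto new strands after replication by DNMT1, which UHRF1 recruits to half-methylated sites. TET enzymes oxidise methylcytosine and so open the way to demethylation. They are iron and 2-oxoglutarate dependent dioxygenases that use molecular oxygen as a substrate, so oxygen supply bears on what they can do in a cell, apart from how much of their mRNA is present.

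RNA was sequenced from 30 livers, each from 1 juvenile fish, in 6 groups of 5. The juveniles were 6 months old and had been bred in the laboratory from adults of Scorton Creek (SC), a reference site, or of New Bedford Harbor (NBH), a harbor contaminated with polychlorinated biphenyls whose killifish are resistant to dioxin-like toxicants. For 6 hours each fish was held at ambient oxygen (control group), at 10% oxygen (mild hypoxia) or at 5% oxygen (severe hypoxia), so each population has a control, a mild and a severe group. The fish of a population descend from a few parents, and all were first-generation offspring reared in clean conditions, so p-values measure variation between the fish sampled and say nothing of other families. The comparisons ask whether the mRNA of each enzyme changed with hypoxia, and whether SC and NBH fish differed.

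Total counts ran from 4955114 to 23849931 per fish and were uneven between groups, with medians of 12755707 (control), 7393074 (mild) and 18906362 (severe) for SC fish and of 8179471, 16942104 and 17879044 in the same NBH groups. NBH severe hypoxia replicate 5 was the shallowest library, far below the rest of its group in total count, and values without it are given where they matter. Hepatocyte markers (fibrinogens, apolipoproteins, hemopexin and others) summed to between 68178 and 141565 CPM in every fish, and all 12 passed the filter on low counts. Levels are in CPM, counts scaled to library size, with the trimmed mean of M values (TMM) as the scaling factor. They are compared between fish and not between genes, because transcript lengths were not used here. In bulk liver, fewer cells of a type and less RNA per cell cannot be told apart.

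All 7 genes were rare transcripts in liver, which sets the precision of everything that follows. dnmt1 had 11 to 120 counts per fish (median 53), tet3 had 10 to 197 (median 35.5) and tet2 had 6 to 50 (median 25.5). dnmt3ab had 2 to 36 counts (median 8) and tet1 had 1 to 30 (median 6). The filter on low counts kept these 5 genes among the 13609 tested. It left out uhrf1, with a median of 4 counts and none in 2 fish, and dnmt3ba, with a median of 2.5 and none in 4 fish.

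**Figure D1:**
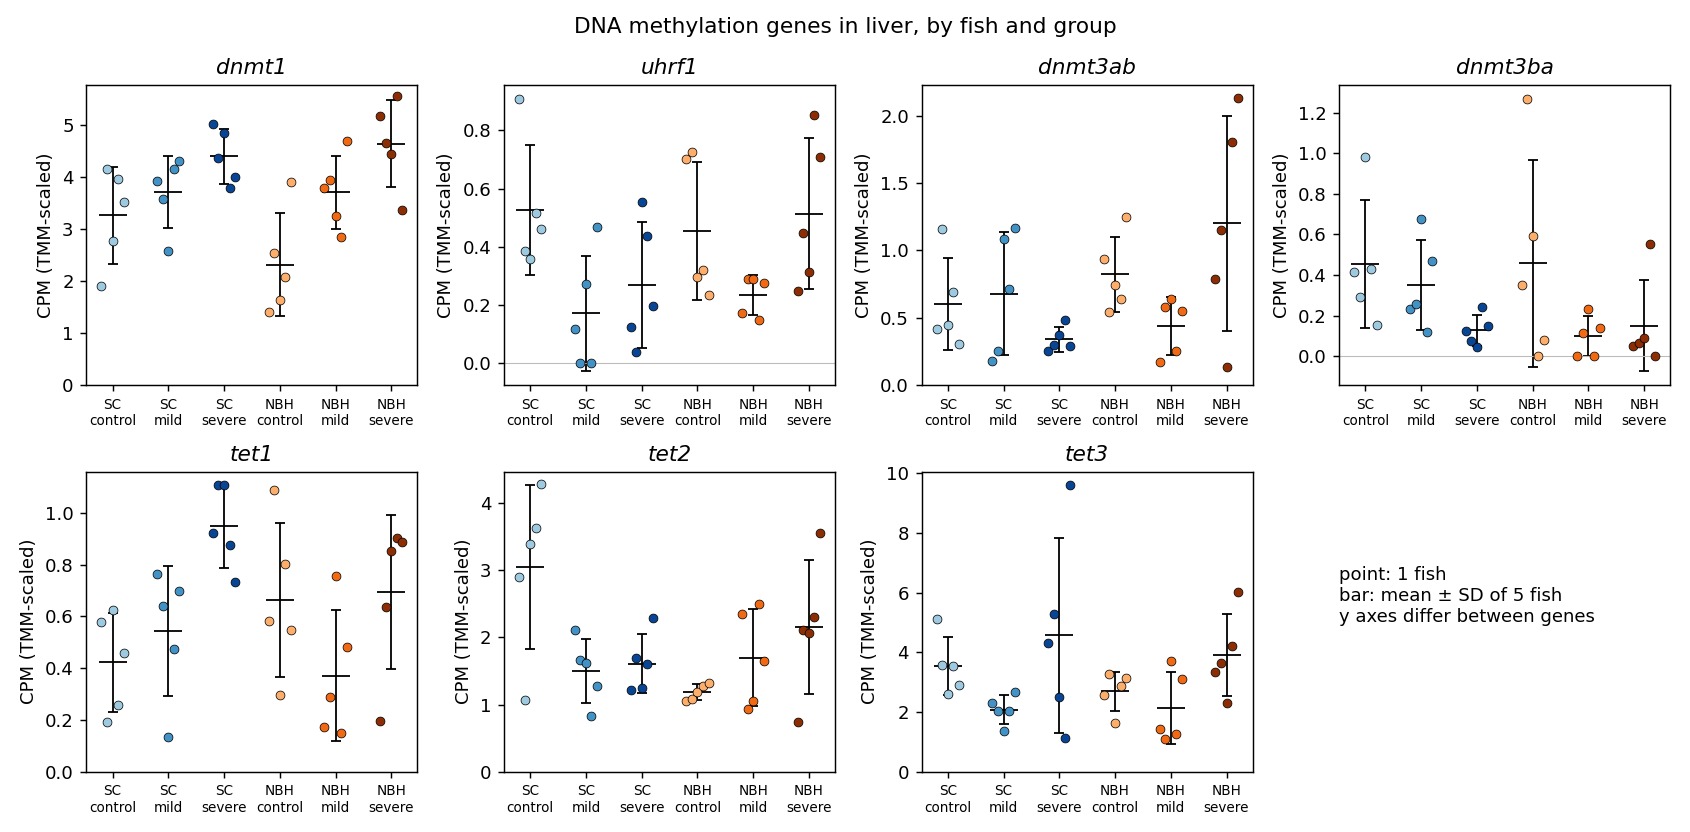
TMM-scaled CPM (y axis, a separate linear scale for each gene) of the 7 genes in SC and NBH control, mild and severe hypoxia groups (x axis). Each point is 1 fish and the bars are the mean ± SD of 5 fish. dnmt1 means climb from 2.31 to 4.64 CPM across the NBH groups, and tet2 is high in 4 of 5 SC control fish.

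dnmt1, the maintenance methyltransferase, passed the test in severe hypoxia in NBH fish and in the average of both populations. It lies on chromosome 16 (chr16:16174420-16202652 in the assembly MU-UCD_Fhet_4.1). In NBH control fish its levels were 1.40, 2.54, 1.63, 2.09 and 3.91 CPM, and in NBH fish under severe hypoxia they were 5.18, 4.66, 4.44, 5.56 and 3.37 CPM. The groups overlapped through replicate 5 of each, the highest control fish and the lowest severe fish. Without those fish, every severe fish stood above every control fish. Under mild hypoxia NBH fish had 3.79, 3.95, 3.26, 2.85 and 4.69 CPM, between the other groups on average.

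The NBH mean of dnmt1 was 2.31 ± 0.992 CPM in controls, 3.70 ± 0.703 in mild and 4.64 ± 0.835 in severe hypoxia (SD, n = 5 each). The rise under severe hypoxia was 0.99 on the log2 scale, a 1.99-fold difference (SE 0.24, 95% interval 0.50 to 1.48, adjusted p = 0.0072 by the edgeR quasi-likelihood test with Benjamini-Hochberg adjustment over all tested genes). dnmt1 was the 1 member of 5 called in this comparison, in which 14% of all genes were called and 7.45% were called higher. Under mild hypoxia the difference of 0.65 (SE 0.24, adjusted p = 0.0529) missed the threshold.

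In SC fish dnmt1 had 1.90, 4.15, 2.77, 3.96 and 3.52 CPM in controls, 3.93, 3.58, 2.57, 4.16 and 4.31 in mild hypoxia, and 5.02, 4.36, 4.84, 3.79 and 4.0 in severe hypoxia. All of the severe fish lay above the control mean of 3.26, but the groups overlapped. The log2 difference from control was 0.20 (SE 0.24, adjusted p = 0.614) in mild and 0.44 (SE 0.23, adjusted p = 0.152) in severe hypoxia, and neither passed. The 95% interval of the severe difference ran from -0.03 to 0.91, so it does not show that SC dnmt1 stayed level.

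Averaged over both populations, dnmt1 was higher in severe hypoxia by 0.71 (SE 0.17, 95% interval 0.37 to 1.05, adjusted p = 0.0014), again as the 1 member called. In that comparison 38.2% of all genes were called and 20.4% were called higher. The mild average was 0.42 (SE 0.17, adjusted p = 0.0505). The severe response of NBH fish exceeded that of SC fish by 0.55 (SE 0.33, adjusted p = 0.574), so a difference between the populations in this response was not shown. The step from mild to severe hypoxia was 0.24 in SC (adjusted p = 0.729) and 0.34 in NBH fish (adjusted p = 0.449).

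The populations did not differ detectably in dnmt1 itself. NBH controls were lower than SC controls by 0.46 on the log2 scale (SE 0.25, adjusted p = 0.410), and in severe hypoxia the difference was 0.09 with a 95% interval of -0.37 to 0.54. The order of group means, from NBH control (2.31 CPM) through SC control (3.26), NBH mild (3.70), SC mild (3.71) and SC severe (4.40) to NBH severe (4.64), therefore holds neighbours that overlap throughout.

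The dnmt1 call in NBH fish held without each fish in turn, with differences from 0.85 to 1.31 and the highest value without NBH control replicate 5. It was 1.07 without NBH severe hypoxia replicate 5. The call was lost with only NBH severe and control fish fitted (0.96, adjusted p = 0.0583). Depth moved with oxygen in NBH fish. With log library size added to the model, the difference was 0.86 (adjusted p = 0.0252), and after thinning of every library to the smallest total it was 0.73 (adjusted p = 0.256), in a range of 1.14e-04 to 0.256 over the other settings.

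**Figure D2:**
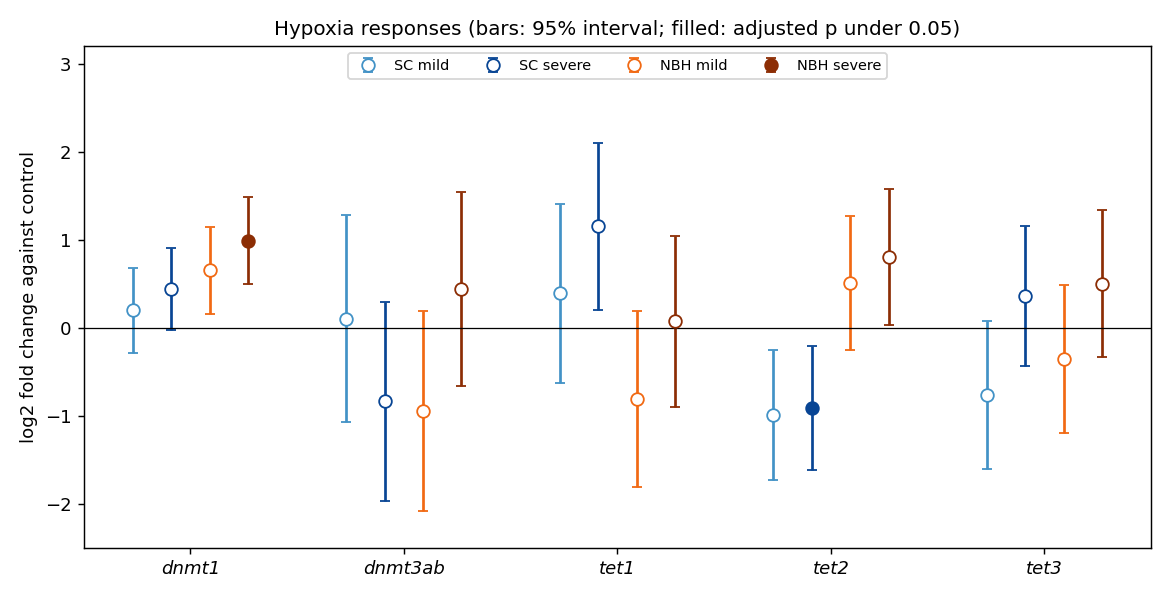
Log2 fold change against the control group of the same population (y axis) for the 5 tested members (x axis), in SC and NBH fish under mild and severe hypoxia. Points are edgeR estimates, bars are 95% intervals, and filled points passed an adjusted p of 0.05. dnmt1 lies above 0 in each of the 4 comparisons and was called in NBH severe hypoxia (0.99), and tet2 lies below 0 in SC fish and above 0 in NBH fish.

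uhrf1 (chr9:13279558-13291622), whose product brings DNMT1 to newly replicated DNA, was left out of the main test by the filter on low counts. No change in uhrf1 passed adjustment. SC control fish had 11, 4, 4, 6 and 3 counts (0.909, 0.386, 0.357, 0.517 and 0.459 CPM), and SC fish under mild hypoxia had 2, 0, 2, 0 and 4 counts (0.117, 0, 0.270, 0 and 0.466 CPM). Mild fish were lower, with means of 0.171 against 0.526 CPM, and the groups overlapped through mild replicate 5. An exact permutation test of this difference gave p = 0.0317, or 0.127 after adjustment over 8 such tests, where 0.00794 is the smallest p that 5 fish against 5 allow.

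In NBH fish uhrf1 averaged 0.456 ± 0.237 CPM in controls, 0.236 ± 0.0690 in mild and 0.514 ± 0.259 in severe hypoxia (SD, n = 5 each). The exact p was 0.0873 for mild and 0.643 for severe hypoxia. SC fish under severe hypoxia averaged 0.269 ± 0.217 CPM (exact p = 0.111 against controls). A change of uhrf1 passed adjustment in none of the 4 comparisons. With 8 tests and a smallest possible p of 0.00794, no single comparison could pass on its own. The exact test therefore does not show uhrf1 to be level.

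dnmt3ab (chr19:23235605-23296047), a de novo methyltransferase gene of the DNMT3A branch, differed between the populations under severe hypoxia. SC fish had 0.251, 0.296, 0.369, 0.485 and 0.293 CPM, from 6, 8, 8, 10 and 6 counts. NBH fish had 0.789, 1.15, 0.134, 1.80 and 2.13 CPM, from 16, 18, 3, 36 and 12 counts. NBH fish were higher except for replicate 3, which was below every SC fish, so the groups overlapped.

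The dnmt3ab means in severe hypoxia were 0.339 ± 0.0923 CPM in SC and 1.20 ± 0.796 in NBH fish (SD, n = 5 each), a log2 difference of 1.75 (SE 0.53, adjusted p = 0.0431). It was the 1 member of 5 called there, beside 7.32% of all genes called and 3.9% called higher in NBH. The study left out 1 outlying NBH severe fish without giving its number. Over all omissions of 1 fish here, differences ran from 1.49 to 2.06. The call was lost without SC severe replicate 1, 2, 3 or 5 and without NBH severe replicate 2, 4 or 5. It was also lost with only the SC and NBH severe groups fitted (1.75, adjusted p = 0.148, the highest of the adjusted p-values, whose lowest was 0.0117) and with the total count as a covariate (1.53, adjusted p = 0.106).

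Within populations dnmt3ab did not pass in any hypoxia comparison. Its difference from control was 0.10 (adjusted p = 0.927) in SC mild, -0.84 (SE 0.55, adjusted p = 0.263) in SC severe, -0.94 (SE 0.55, adjusted p = 0.228) in NBH mild and 0.44 (adjusted p = 0.624) in NBH severe hypoxia. The severe responses of the populations differed by 1.28 (SE 0.77, adjusted p = 0.576). From mild to severe hypoxia NBH fish moved by 1.39 (SE 0.53, adjusted p = 0.165). Control fish had 0.413, 1.16, 0.446, 0.690 and 0.306 CPM in SC and 0.934, 0.544, 0.742, 0.642 and 1.25 CPM in NBH, ranges that overlap.

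dnmt3ba (chr1:31824944-31861402), of the DNMT3B branch, had the lowest median count of the members. SC control fish had 0.413, 0.290, 0.982, 0.431 and 0.153 CPM, and SC severe fish had 0.126, 0.0739, 0.0461, 0.243 and 0.146 CPM. Severe fish were lower on average (0.127 against 0.454 CPM), though the highest of them exceeded the lowest control. The exact permutation test gave p = 0.0159, adjusted p = 0.127 over the same 8 tests, an adjustment that no single comparison could pass on its own. In NBH fish the mean was 0.458 ± 0.510 CPM in controls, 0.0973 ± 0.0990 in mild and 0.151 ± 0.226 in severe hypoxia (SD, n = 5 each), with exact p of 0.159 and 0.286. The NBH control mean rests largely on replicate 2, at 1.27 CPM from 7 counts.

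tet2 (chr5:17686702-17721100) was higher on average in SC than in NBH control fish. SC control fish had 2.89, 1.06, 3.39, 3.62 and 4.29 CPM and NBH control fish had 1.05, 1.09, 1.19, 1.28 and 1.33 CPM. SC fish were above every NBH fish except replicate 2, which sat among them. The means were 3.05 ± 1.22 and 1.19 ± 0.120 CPM (SD, n = 5 each), and NBH was lower by 1.34 on the log2 scale (SE 0.37, adjusted p = 0.0612). This missed the threshold in a comparison where 1.62% of all genes were called. It passed without SC control replicate 2 (-1.56, adjusted p = 0.0239), without NBH severe hypoxia replicate 5 (-1.35, adjusted p = 0.0471) and with DESeq2 (-1.35, adjusted p = 0.0351), in a range of 0.0239 to 0.581 over the other settings.

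In SC fish tet2 was lower under severe hypoxia than in controls. Levels were 2.11, 1.66, 1.62, 0.832 and 1.28 CPM in mild and 1.21, 1.70, 1.24, 1.60 and 2.29 CPM in severe hypoxia, so every exposed fish was below 4 of the 5 controls, and 9 of the 10 were above control replicate 2. The log2 difference was -0.99 in mild (SE 0.36, adjusted p = 0.0645) and -0.91 in severe hypoxia (SE 0.34, 95% interval -1.62 to -0.21, adjusted p = 0.0472), of which the severe one passed. It was the 1 member called in SC severe hypoxia, where 28.7% of all genes were called and 13.5% were called lower.

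That tet2 call sat at the threshold. It was lost without SC control replicate 1, 3, 4 or 5 or SC severe replicate 1, 2, 3 or 4, with differences of -1.13 to -0.77 over all omissions. It was also lost without TMM factors (-0.58, adjusted p = 0.204), with the total count as a covariate (-0.72, adjusted p = 0.197), with only SC severe and control fish fitted (-0.92, adjusted p = 0.0501) and in thinned counts (-0.44, adjusted p = 0.631), in a range of 0.0137 to 0.631 over the other settings. SC severe libraries were deeper than SC control libraries.

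In NBH fish the tet2 estimates had the opposite sign, with levels of 2.35, 0.929, 1.05, 2.50 and 1.66 CPM in mild and 0.740, 2.11, 2.06, 2.30 and 3.55 CPM in severe hypoxia. The differences from control were 0.51 (SE 0.37, adjusted p = 0.342) and 0.80 (SE 0.38, adjusted p = 0.149), and neither passed. The responses of NBH and SC fish differed by 1.5 in mild (SE 0.52, unadjusted p = 0.0073) and by 1.71 in severe hypoxia (SE 0.51, unadjusted p = 0.0022). Over all genes tested the adjusted p was 0.406 and 0.204, so neither difference in response passed. Over all genes 0% and 0.00735% were called in these comparisons. There DESeq2 called 0 members, beside 33 and 65 of 13609 genes. Mild and severe responses share the same control fish.

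tet1 (chr22:22988623-23030027) was higher in SC fish under severe hypoxia in every fish, without passing the test. Controls had 0.579, 0.193, 0.625, 0.259 and 0.459 CPM and severe fish had 0.921, 1.11, 1.11, 0.874 and 0.732 CPM. The groups did not overlap, which held for 9.89% of all genes in the higher direction in this comparison. The means were 0.423 ± 0.191 and 0.948 ± 0.161 CPM (SD, n = 5 each), and the log2 difference was 1.15 (SE 0.46, 95% interval 0.20 to 2.10, adjusted p = 0.0619).

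Behind those tet1 levels stood 2 to 7 counts per control fish and 15 to 30 per severe fish. The adjusted p of SC severe hypoxia ranged from 0.0108 to 0.149 over the other settings, and was under 0.05 in 3 of 18. In NBH fish tet1 was at 0.584, 1.09, 0.297, 0.802 and 0.547 CPM in controls and 0.197, 0.638, 0.852, 0.902 and 0.887 CPM in severe hypoxia. The NBH difference was 0.07 (SE 0.47, 95% interval -0.90 to 1.04, adjusted p = 0.937), and NBH and SC responses differed by -1.08 (SE 0.66, adjusted p = 0.590).

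tet3 (chr12:41602612-41662202) had its lowest mean in mild hypoxia in both populations, and no comparison of it passed in the main fit. With only the groups compared it passed in SC mild (adjusted p = 0.0487) and in the mild average (adjusted p = 0.0480). Without TMM factors it passed in the severe average (adjusted p = 0.0124). Without SC severe replicate 4 it passed in the SC step from mild to severe hypoxia (adjusted p = 0.0400). SC fish had 5.12, 3.57, 2.59, 3.53 and 2.91 CPM in controls, 2.29, 2.05, 1.35, 2.02 and 2.68 in mild, and 4.31, 5.28, 2.49, 1.12 and 9.61 in severe hypoxia. The severe group was widely scattered (4.56 ± 3.25 CPM, SD, n = 5), from 23 to 197 counts, and spanned the range of both other groups. The log2 difference from control was -0.77 in mild (SE 0.41, adjusted p = 0.215) and 0.36 in severe hypoxia (SE 0.39, adjusted p = 0.516), and the latter became -0.11 without severe replicate 5.

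In NBH fish tet3 had 2.57, 3.26, 1.63, 2.89 and 3.13 CPM in controls, 1.43, 1.10, 3.72, 1.25 and 3.10 in mild, and 3.35, 3.64, 2.29, 4.21 and 6.03 in severe hypoxia. All 3 ranges overlapped. The differences from control were -0.35 (adjusted p = 0.568) and 0.50 (adjusted p = 0.432). From mild to severe hypoxia tet3 was higher by 1.12 in SC (SE 0.40, adjusted p = 0.156) and by 0.85 in NBH fish (SE 0.40, adjusted p = 0.258). In these steps 2.9% and 1.95% of all genes were called.

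Across the family few members were called, and 5 tested members are too few to set that apart from the share over all genes. In mild hypoxia the edgeR test called 0 of the 5 tested members in SC fish, where 13.6% of all genes were called, and 0 in NBH fish, where 21% were called. At an unadjusted p under 0.05 there was 1 member in each, tet2 and dnmt1. DESeq2 also called 0 in each, beside 2151 and 3134 of 13609 genes. The mild average over both populations called 0 members beside 35.6% of all genes, with dnmt1 under 0.05 unadjusted. Between populations 0 members were called in mild hypoxia, where 1.25% of all genes were called and no member had an unadjusted p under 0.05. DESeq2 again called 0, beside 448 of 13609 genes.

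**Figure D3:**
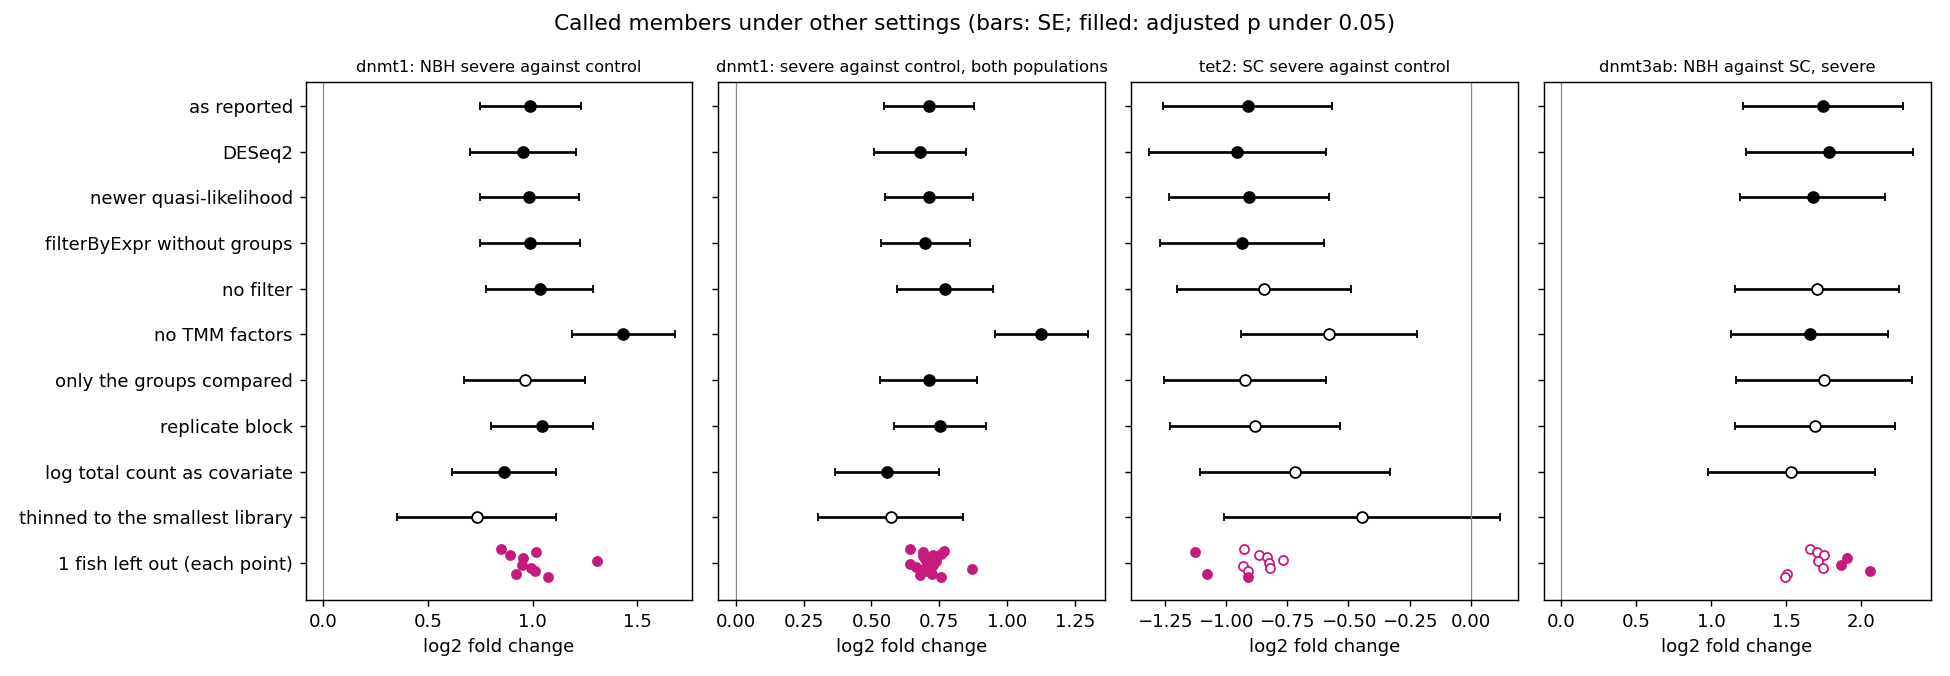
Log2 fold change (x axis, a separate scale for each panel) of the 3 members with a call, in 4 comparisons, under each processing setting (y axis). Bars are 1 SE, filled points passed an adjusted p of 0.05, and the lowest line of each panel has 1 point for each fish left out. dnmt1 in NBH severe hypoxia stays filled for every fish left out, and tet2 in SC severe hypoxia and dnmt3ab between populations open for most of them.

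Members were not correlated over fish after adjustment. Over 30 fish with group means removed, 10 pairs of the 5 tested members were correlated in log2 CPM, and 0 passed Benjamini-Hochberg adjustment. The highest with these values was tet1 with tet3, at Pearson r = 0.376 (permutation p = 0.0228, adjusted p = 0.228) and Spearman rho = 0.475 (permutation p = 0.0124, adjusted p = 0.124). Without the 2 fish farthest from the median of tet1, r was 0.357. In thinned counts tet1 with tet2 was higher, at r = 0.523 (adjusted p = 0.0724) against 0.212 before thinning. dnmt1 and tet2 had r = -0.260 (permutation p = 0.183, adjusted p = 0.676).

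Of 9 listed partners of maintenance methylation 8 were tested, and their median difference in NBH severe hypoxia was 0.00, beside 0.04 over all genes, or 0.44 beside 0.47 without TMM factors. There 1 was higher and 0 lower, a share of the list near the 14% of all genes called. usp7, a deubiquitinase that stabilises DNMT1 and UHRF1 in mammalian cells, rose by 0.46 in severe hypoxia averaged over both populations (SE 0.11, adjusted p = 0.0017) and by 0.55 in NBH fish (adjusted p = 0.0183). In SC severe hypoxia 0 of the 8 passed, beside 28.7% of all genes called. There usp7 averaged 18.6 CPM against 14.5 in SC controls, beside 19.3 against 13.2 in NBH fish. The difference in severe response between the populations passed for 0 of the 8.

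DNMT1 copies methylation in S phase. Of 30 listed genes of S phase and mitosis 19 were tested. In SC fish 6 were lower and 0 higher in mild hypoxia, with a median of -1.41, where 6.36% of all genes were called lower. In severe hypoxia 3 were lower and 0 higher, with a median of -1.12, a share near the 13.5% of all genes called lower. In NBH fish 0 passed in either direction with edgeR or DESeq2 and the medians were 0.13 and 0.32. Without TMM factors 4 were higher in NBH severe hypoxia, beside 4216 of 13609 genes called higher. The difference in response between the populations passed for 0 of the 19 in mild or severe hypoxia. The SC severe count was 5 lower and 1 higher without NBH severe hypoxia replicate 5. Without TMM factors it was 1 lower and 1 higher, beside 891 and 4394 of 13609 genes. mcm2, mcm4, mcm5 and mcm6, subunits of the replicative helicase, and tyms, thymidylate synthase, were among those lower in SC mild hypoxia. Their log2 differences were -2.43, -2.02, -2.58, -2.03 and -2.46, and they were picked for naming after their values were seen. In SC mild fish they averaged 0.245, 0.293, 0.172, 0.352 and 0.388 CPM, in libraries with a median total of 7393074 counts. Those means rest on few counts per fish, so the size of these differences is imprecise. A rare gene can also pass the filter on low counts through the control fish alone, which favors lower calls.

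**Figure D4:**
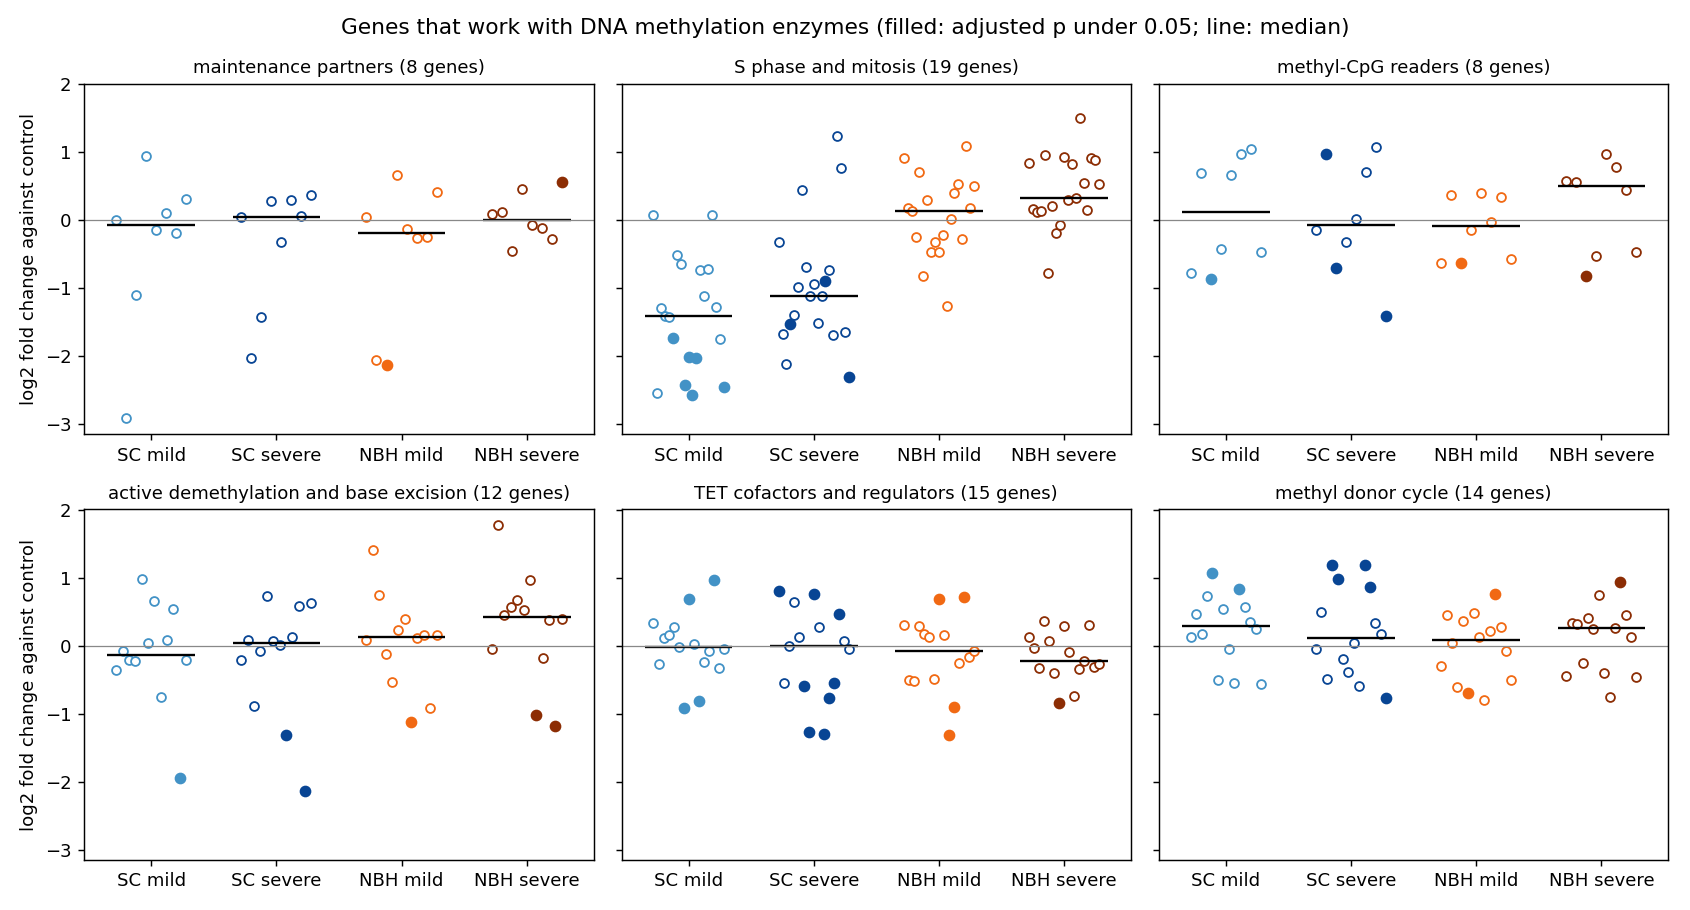
Log2 fold change against control (y axis) of the tested genes in 6 lists of functional partners, for SC and NBH fish in mild and severe hypoxia (x axis). Each point is 1 gene, filled where the adjusted p was under 0.05, and the line is the median. The S phase and mitosis genes of SC fish center at -1.41 and -1.12, those of NBH fish at 0.13 and 0.32.

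Readers of methylated DNA moved in both directions. Of 10 listed 8 were tested, and in severe hypoxia averaged over both populations 2 were higher and 2 lower, where 38.2% of all genes were called (20.4% higher and 17.9% lower). Without TMM factors 4 were higher and 2 lower, beside 6161 of 13609 genes called higher and 983 lower. Without NBH severe hypoxia replicate 5 there were 1 and 2. mbd3a, of the methyl-CpG binding domain family and a subunit of the NuRD corepressor complex in mammals, fell by 0.77 (SE 0.14, adjusted p = 8.6e-05), and it was lower in each of the 4 hypoxia comparisons. Of 15 listed genes of active demethylation and base excision 12 were tested, with 1 higher and 2 lower beside the 38.2% of all genes. Without TMM factors 8 were higher and 2 lower, beside the same 6161 genes higher and 983 lower. With NBH severe hypoxia replicate 5 left out, 2 were higher and 2 lower. The lower ones, unga and polb, encode a uracil-DNA glycosylase and the polymerase that fills excised bases, and were named after their values were seen. unga fell by 1.66 (adjusted p = 2.21e-05) and polb by 1.17 (adjusted p = 3.40e-04).

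Genes around the TET enzymes, which make or remove their cofactors or modify them, were called in both directions. Of 18 listed 15 were tested, with 3 higher and 5 lower in severe hypoxia averaged over both populations beside 38.2% of all genes. In SC severe hypoxia 3 were higher and 5 lower beside 28.7% of all genes, and in NBH severe hypoxia 0 and 1 beside 14%. Without TMM factors the average gave 7 higher and 2 lower, beside 6161 of 13609 genes called higher and 983 lower. idh3b, a subunit of the isocitrate dehydrogenase that yields 2-oxoglutarate in mitochondria, rose by 0.52 (SE 0.11, adjusted p = 7.12e-04). Other isocitrate dehydrogenase genes, named after their values were seen, did not all rise. In SC severe hypoxia idh1 averaged 202 CPM against 304 in controls, idh2 2.57 against 6.19 and idh3g 21.3 against 17.6. In NBH fish the same means were 161 against 213, 2.73 against 5.11 and 15.1 against 16.2 CPM. idh3a was at 0 in every group. oga, which removes the sugar that OGT adds to proteins including TETs, fell by 0.56 (SE 0.14, adjusted p = 0.0023), a call lost without TMM factors.

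The methyl donor cycle supplies S-adenosylmethionine to the methyltransferases. Of 16 listed genes 14 were tested, with 5 higher and 2 lower in severe hypoxia averaged over both populations. In that comparison 38.2% of all genes were called (20.4% higher). Without TMM factors 8 were higher and 0 lower, beside 6161 of 13609 genes higher and 983 lower. mat1a, the liver enzyme that makes S-adenosylmethionine, rose by 0.70 (SE 0.14, adjusted p = 2.94e-04). mthfd1b rose by 0.72 (SE 0.17, adjusted p = 0.0012) while its paralog mthfd1a fell by 0.67 (SE 0.21, adjusted p = 0.0136), both of a trifunctional folate enzyme. The mthfd1a call was lost without TMM factors. In SC severe hypoxia 4 of the list were higher and 1 lower beside 28.7% of all genes called, and in NBH severe hypoxia 1 and 0 beside 14%. The difference in severe response between the populations passed for 0 of the 14. Relatives outside the symbol rule (trdmt1, alkbh1 and alkbh2) passed in none of these comparisons.

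Markers of other liver cells moved with oxygen as well, though not all in the same direction. Endothelial and stellate markers summed to 166 to 325 CPM in SC controls and 55.8 to 78.9 in SC severe hypoxia, and to 174 to 255 and 70.4 to 124 in the same NBH groups, so severe and control ranges were apart. Of the 13 tested 1 was higher and 7 lower in severe hypoxia averaged over both populations. Over all genes 20.4% were called higher there and 17.9% lower. Without TMM factors 3 were higher and 7 lower, beside 6161 of 13609 genes higher and 983 lower. The collagens col1a1b (-3.89), col1a1a (-3.77) and col1a2 (-3.60) led the lower ones. With dcn (51.2 CPM) they had the largest SC control means of the list (32.6, 30.9 and 45.5 CPM). Other genes of the list, named after their values were seen, did not all fall. In SC severe hypoxia cdh5 averaged 5.97 CPM against 21.5 in controls, kdr 6.22 against 3.53, stab1 4.35 against 4.57 and tie1 18.7 against 19.6. In NBH fish the same means were 12.5 against 24.98, 5.8 against 3.73, 8.4 against 3.11 and 25.7 against 23.1 CPM. Of 13 listed immune markers 9 were tested. All 9 were called lower in the average over both populations, including cd74a (-0.89), beside 17.9% of all genes called lower. A rare marker can pass the filter on low counts through the control fish alone, which favors lower calls. In SC severe hypoxia 8 of the 9 were lower, beside 13.5% of all genes. In NBH severe hypoxia 1 was lower, beside 886 of 13609 genes. The difference in severe response between the populations passed for 0 of the 9. In the average the immune count was 5 without TMM factors, where cd74a lost its call and 983 of 13609 genes were lower. It was 8 without NBH severe hypoxia replicate 5. The immune markers summed to 25.5 to 37.9 CPM in SC controls and 5.32 to 22.7 in SC severe hypoxia, and to 28.7 to 62.7 and 18.3 to 34.9 in NBH fish. Of 6 erythrocyte markers 1 was higher and 3 lower, beside 38.2% of all genes called. The lower ones included alas2 (-1.39) and hemgn (-0.44, a call lost without TMM factors and without NBH severe hypoxia replicate 5). No listed marker of these 3 kinds was at 0 in all fish. Their part in the tet2 and dnmt1 values was not tested.

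Hepatocyte markers held 4 genes higher and 2 lower of 12 in severe hypoxia averaged over both populations, beside 38.2% of all genes. Without TMM factors 8 were higher and 1 lower, beside 6161 of 13609 genes higher and 983 lower. hnf4a, a hepatocyte transcription factor, was higher by 1.01 (adjusted p = 2.49e-06). hpxa (-0.71, a call lost without TMM factors) and apobb.1 (-0.70) were lower. Markers of exocrine pancreas and gut had 0 of 9 higher and 1 lower, beside 38.2% of all genes called. The lower one was fabp2 (-0.54, a call lost without TMM factors). Summed over each fish the pancreas and gut markers reached 363 to 688 CPM in SC severe hypoxia against 642 to 1202 in SC controls. In NBH fish the sums were 521 to 1293 CPM in severe hypoxia against 611 to 1880 in controls. In either population on its own 0 of the 9 were called in severe hypoxia, beside 28.7% (SC) and 14% (NBH) of all genes. The part of these markers in the member values was not tested.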

How the data were processed

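RNA from 30 killifish livers was sequenced as stranded single-end 50 bp reads. The authors trimmed reads with Trimmomatic, aligned them with STAR and counted them with HTSeq-count. The deposited values are whole, unnormalised counts for each gene, with 1 fish per table. Bisulfite libraries were not analysed here. Groups come from the sample labels. Positions come from the RefSeq table of the assembly MU-UCD_Fhet_4.1, in which all 7 symbols matched, and whether paralogs share reads was not checked.

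Genes passing filterByExpr with the 6 groups (13609 of 34089) were given TMM factors, and edgeR 4.0.16 estimated a mean for each group (R 4.3.3, limma 3.58.1), with the quasi-likelihood test in its legacy form. A gene was called at a Benjamini-Hochberg adjusted p under 0.05 over all tested genes within each of 13 comparisons. Standard errors were derived from the estimate and its F statistic. Differences of averages, steps and responses are contrasts of the same fit. The 2 members under the filter were compared by two-sided exact permutation of CPM, an alternative added after seeing the data. Correlations used log2 CPM with a prior count of 2 and 100000 permutations of fish within groups.

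The other settings were no TMM factors, DESeq2 1.42.0, the newer quasi-likelihood method, other filters, only the groups compared, a replicate block, the total count as a covariate, thinning to the smallest library, and each fish left out. All 30 fish were used. The study omitted 1 NBH fish of the severe hypoxia group as an outlier, without giving its replicate number.

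The members and lists were chosen with earlier results of these data known. All members are named. From each list the 3 largest changes in severe hypoxia averaged over both populations were named, among called genes averaging at least 5 CPM, and other named genes are said to be chosen after their values were seen. A gene that this rule names is not reported here. Genes with the most similar pattern were to be named for members averaging at least 5 CPM, and no member did. Counting intervals are not given, since fish-to-fish spread is the error used, and duplicated molecules cannot be told apart in counts.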

Additional observations from a re-analysis of the deposited data

How the results depend on the processing

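Low counts limit every member, so a missed threshold does not show a gene to be level, and unequal depth could not be separated from group. Thinned counts and the filter without groups left dnmt3ab and tet1 untested. Fits of only the groups compared also left some members untested, both of these in SC mild and NBH mild, dnmt3ab in SC severe and tet1 in NBH severe. In the other settings the 5 members of the main fit were tested. Without the filter dnmt3ba and uhrf1 were fitted as well, and neither passed in any comparison. There uhrf1 in SC mild was at -1.59 (SE 0.71, adjusted p = 0.213). The lowest adjusted p of these 2 genes was 0.0710, for dnmt3ba in the severe average (-1.52, SE 0.61). The number of members called was as follows where a setting changed it. Without TMM factors it was 2 in SC severe (dnmt1 and tet1, with tet2 lost), 1 in NBH mild, 2 in NBH severe, 1 in the mild average, 3 in the severe average and 1 between controls. Of all 13609 genes that setting called 5285, 4141, 4544, 5960, 7144 and 359 in the same order. DESeq2 called 1 between controls, where it called 440 of 13609 genes. The newer quasi-likelihood method called 2 in SC severe and 1 in the mild average, beside 4279 and 5030 of 13609 genes. The filter without groups called 0 between populations in severe hypoxia, beside 802 of 10543 genes. No filter called 0 there and 0 in SC severe, beside 820 and 3736 of 25158 genes. The total count as covariate called 1 in SC mild, 0 in SC severe and 0 between populations in severe hypoxia. Of all 13609 genes it called 2247, 2555 and 673 there. Thinning called 0 in SC severe, 0 in NBH severe, 0 in the severe average and 0 between populations in severe hypoxia. Of 10864 genes in thinned counts, 1804, 800, 2842 and 319 were called there. Fits of only the groups compared called 1 in SC mild (tet3), tet1 in place of tet2 in SC severe, and 0 in NBH severe. They also called 1 in the mild average (tet3) and 0 between populations in severe hypoxia. Over all genes those fits called 1994 of 11118, 3796 of 12036, 993 of 11603, 5249 of 12471 and 197 of 12507. The other causes were not tested.

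The replicate block called 0 in SC severe (tet2 -0.88, adjusted p = 0.0598), 1 in the mild average (dnmt1 0.44, adjusted p = 0.0487) and 0 between populations in severe hypoxia (dnmt3ab 1.69, adjusted p = 0.0576), and changed no other call. Of all 13609 genes it called 3729, 4618 and 822 there. No pairing of samples by replicate number was seen: of 75 same-numbered pairs 4 correlated above 0.1 (median r = -0.0131), and 6 of 30 fish correlated best with their own number. Whether the numbers mark shared handling was not tested.

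With each fish left out, the number called ran from 0 to 1 in SC mild, SC severe, NBH mild, the mild average, the SC step, between controls and between populations in severe hypoxia, and was 1 throughout in NBH severe and the severe average. dnmt1 in NBH mild passed without NBH control replicate 5 (0.97, adjusted p = 0.0062), NBH mild replicate 3 or 4, or NBH severe replicate 5, and tet2 in SC mild without SC control replicate 2 (-1.21, adjusted p = 0.0214).

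Some directions turned, of results that had not passed. dnmt1 between populations in severe hypoxia was -0.01 without TMM factors, and its step from mild to severe hypoxia in SC fish was -0.027 with the covariate and -0.0097 in thinned counts. dnmt3ab in SC mild was -0.10 with the covariate and -0.20 to 0.47 over omitted fish. Over omitted fish tet3 in SC severe ran from -0.11 to 0.61 and tet1 in NBH severe from -0.10 to 0.33. In thinned counts the correlation of dnmt1 was -0.264 with dnmt3ab and -0.0612 with tet1.

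Without TMM factors the median of all genes rose to 0.47 in NBH severe and 0.38 in SC severe hypoxia, from 0.04 and 0.01, and 4216 genes were higher and 328 lower in NBH severe hypoxia, against 1014 and 886. In the severe average oga (-0.16, adjusted p = 0.362) and mthfd1a (-0.30, adjusted p = 0.233) then lost their calls, as did hemgn (-0.04), fabp2 (-0.12), hpxa (-0.31) and cd74a (-0.48). The settings for the lists were chosen after seeing the data.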
